A study of Rattus norvegicus with 6 samples.

Results

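The surface of stromal cells carries receptor tyrosine kinases (RTKs), and 10 of them are described here across 6 RNA-seq libraries of rat bone marrow mesenchymal stem cells (BMSCs). They were Egfr, Erbb2, Fgfr1, Fgfr2, Met, Axl, Ddr1, Ddr2, Insr and Ephb2, found in the gene count table by gene symbol. The receptors for PDGF and IGF were left out of this set. The 10 receptors were among 33508 genes in the table, 16786 of which had a count in at least 1 library, and all 10 were among the 12104 genes that passed the filter on low counts and were tested. The rule used gene names alone, but the receptors were chosen with earlier results of these data known.

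An RTK typically binds its ligand outside the cell, pairs with a second receptor and phosphorylates tyrosines on its own tail. Adaptor proteins dock there and pass the signal on to RAS and the ERK kinases, to phosphoinositide 3-kinase and to phospholipase C. In stromal cells of the marrow, EGF, FGF, HGF, GAS6, insulin, ephrins and fibrillar collagens are all read by receptors of this class, which bear on growth, migration, survival and adhesion to matrix. Phosphatases, Sprouty proteins and ubiquitin ligases of the Cbl family end the signal, and clathrin-coated vesicles carry the receptor inside.

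The study compared 3 libraries of BMSCs-OE-FNDC5, cells transduced with a lentivirus that overexpresses FNDC5, with 3 libraries of BMSCs-OE-NC, which received the vector control. FNDC5 is the membrane protein from which the hormone irisin is cleaved. By the study's methods, all cells came from male Sprague–Dawley rats of 2 months, were passaged before transduction, and the vectors were tagged with a fluorescent protein or luciferase. Both groups underwent hypoxia/serum deprivation (H/SD) for 24 h, at 1% O2 in medium with neither glucose nor serum, so the comparison is between 2 groups of deprived cells and holds no unstressed control. The labels call the libraries biological replicates, and whether they came from separate rats, cultures or transductions is not given in the sources used here, so the p-values measure the spread between these libraries, which may be technical.

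The targeted transcript set the groups apart, with 65589, 64672 and 64195 Fndc5 counts in BMSCs-OE-FNDC5 and 22, 17 and 25 in BMSCs-OE-NC. Total counts were 16640635 to 17229490 in BMSCs-OE-FNDC5 and 17430287 to 17965722 in BMSCs-OE-NC. Libraries were scaled with TMM, the trimmed mean of M values, with factors of 0.877 to 0.882 in BMSCs-OE-FNDC5 and 1.13 to 1.14 in BMSCs-OE-NC, and levels are given on that scale as CPM, counts relative to the scaled library size. A gene was called at an adjusted p under 0.05 in edgeR's quasi-likelihood test with Benjamini-Hochberg adjustment over all genes tested, and a positive log2 fold change means a higher level in BMSCs-OE-FNDC5. By this rule 38.8% of all genes tested were lower and 36.9% were higher in BMSCs-OE-FNDC5 (75.7% in either direction), so a single call is a common event in this comparison. With an absolute log2 fold change over 1 as a further threshold, 17.5% were lower and 9.84% higher. Tallies of gene lists below are to be read beside these shares.

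Of the 10 receptors, 8 were lower in BMSCs-OE-FNDC5 than in BMSCs-OE-NC, 0 were higher and 2, Erbb2 and Ddr1, did not pass the test. The 8 lower receptors were Egfr, Fgfr1, Fgfr2, Met, Axl, Ddr2, Insr and Ephb2, and 4 of them, Egfr, Met, Ddr2 and Insr, also passed the fold threshold. The median log2 fold change of the 10 was −0.92, beside −0.04 over all genes tested. In 7 receptors all 3 BMSCs-OE-FNDC5 libraries lay below all 3 BMSCs-OE-NC libraries, as they did in 40.4% of all genes tested, and in Ddr1 they lay above, as in 37.9%. All but Met passed the filter on low counts in both groups. Met passed it through BMSCs-OE-NC, with 1 of 3 BMSCs-OE-FNDC5 libraries above the filter's level of 0.577 CPM before TMM scaling. Transcript length moved with these changes, as described further on, and in a fit that takes the length trend out 5 receptors were lower and 3 were higher.

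**Figure D1:**
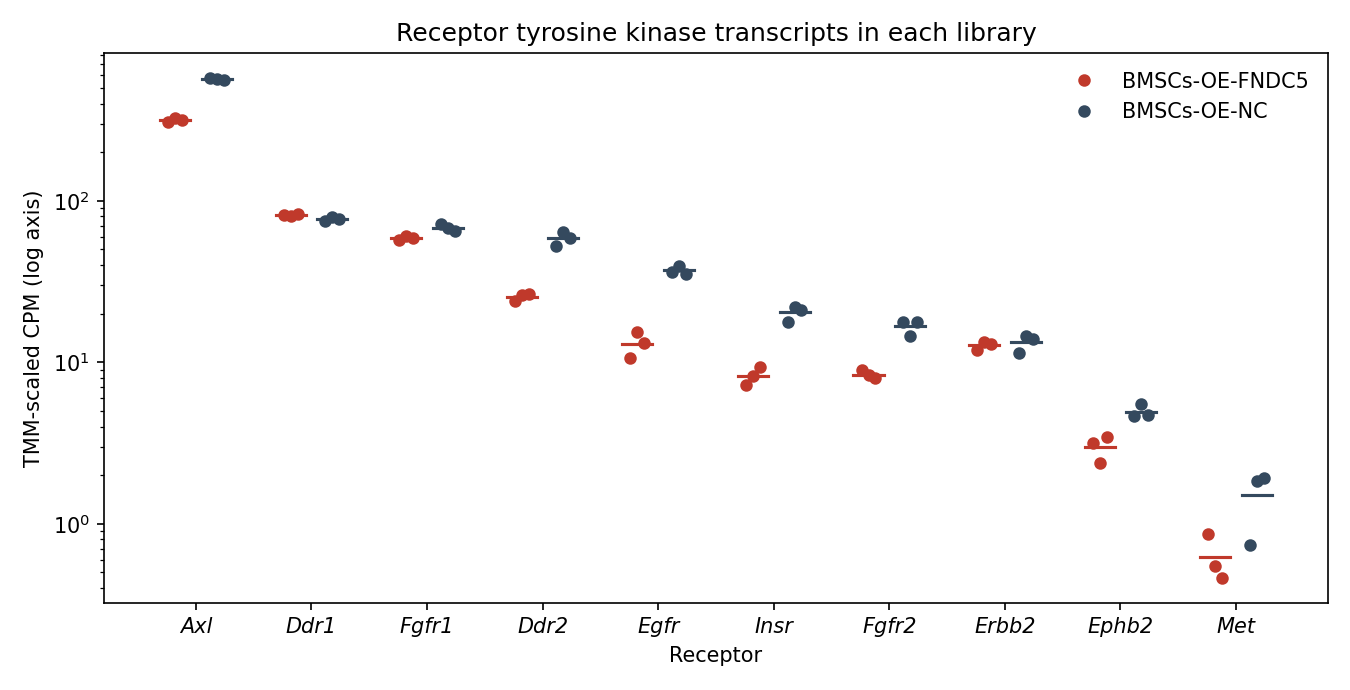
TMM-scaled CPM (log axis) of each receptor, with 1 point per library and a bar at the group mean, BMSCs-OE-FNDC5 in red on the left and BMSCs-OE-NC in dark blue on the right of each pair. Axl stands above the other receptors in both groups, the groups do not overlap in Egfr, Insr, Fgfr2 and Ddr2, and they overlap in Erbb2 and Met.

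Together the 10 receptors had 7747, 7903 and 8022 counts in BMSCs-OE-FNDC5 and 17591, 17707 and 16907 counts in BMSCs-OE-NC. These were 0.0451%, 0.0475% and 0.0466% of all counts in BMSCs-OE-FNDC5 and 0.0979%, 0.101% and 0.0970% in BMSCs-OE-NC. On the TMM scale the sums were 512, 539 and 531 CPM in BMSCs-OE-FNDC5 and 864, 882 and 854 CPM in BMSCs-OE-NC. The sum was lower in every BMSCs-OE-FNDC5 library. Axl alone made up 59.3% to 60.0% of the receptors' counts in BMSCs-OE-FNDC5 and 64.9% to 66.7% in BMSCs-OE-NC, and without it the sums were 206 to 216 CPM in BMSCs-OE-FNDC5 and 288 to 310 CPM in BMSCs-OE-NC. In libraries made from whole cultures, fewer cells that express a receptor and less receptor RNA per cell cannot be told apart.

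Levels can be compared between genes per length, for which the deposited FPKM values served. In BMSCs-OE-FNDC5 the order was Axl at 72.8 ± 1.98 FPKM (SD, n = 3), Ddr1 at 18.8, Fgfr1 at 17.4, Ddr2 at 6.81, Egfr at 3.14, Erbb2 at 2.69, Fgfr2 at 1.76, Insr at 1.19, Ephb2 at 0.604 and Met at 0.126. The ranges of Egfr and Erbb2 overlapped there and all other neighbours were separate. In BMSCs-OE-NC the order was Axl at 129 ± 2.49 FPKM (SD, n = 3), Fgfr1 at 19.8, Ddr1 at 17.4, Ddr2 at 15.4, Egfr at 8.76, Fgfr2 at 3.44, Insr at 2.87, Erbb2 at 2.75, Ephb2 at 0.978 and Met at 0.298. Fgfr2 overlapped with Insr and Insr with Erbb2, and the other neighbours were separate. Both ends of the order were the same in the 2 groups, with Axl first and Ephb2 and Met last. Ddr1 stood above Fgfr1 in BMSCs-OE-FNDC5 and below it in BMSCs-OE-NC. Erbb2 was in place 6 in BMSCs-OE-FNDC5 and in place 8 in BMSCs-OE-NC.

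The study's transcription factor, Sp1, binds GC boxes, and its own transcript was at 10.1, 12.0 and 10.7 CPM in BMSCs-OE-FNDC5 and at 29.1, 31.7 and 30.2 CPM in BMSCs-OE-NC (log2 fold change −1.48, standard error 0.09, adjusted p = 6.0e-08 from edgeR). At 7712 bases, Sp1 is in the class of the longest genes tested, from 4723 bases. The median log2 fold change of that class was −0.84 and 73.4% of its genes were lower. The part of length in the Sp1 fall was not tested. For the GC boxes that Sp1 binds, the 250 bases before the start of each receptor gene were read from RefSeq promoter sequences (rat build GRCr8). They were searched on both strands for the GC box core GGGCGG and for the TATA box TATAAA. These motifs cannot overlap each other. RefSeq windows matched 8 of the 10 receptors, with a pair of windows for Ddr1, which made 9 windows. The windows shown are those of the receptor with the strongest fall (Egfr), of the most abundant receptor (Axl) and, as the densest in GC boxes, of a receptor that did not pass the test (the second window of Ddr1). Each is printed 5′ to 3′ on the strand of the gene and ends at the base before the start, and capitals mark GGGCGG or its reverse complement CCGCCC. The Egfr window is chr14:95378376-95378625 on the plus strand, the Axl window is chr1:90424010-90424259 on the minus strand and the Ddr1 window is chr20:3050156-3050405 on the plus strand.
Egfr: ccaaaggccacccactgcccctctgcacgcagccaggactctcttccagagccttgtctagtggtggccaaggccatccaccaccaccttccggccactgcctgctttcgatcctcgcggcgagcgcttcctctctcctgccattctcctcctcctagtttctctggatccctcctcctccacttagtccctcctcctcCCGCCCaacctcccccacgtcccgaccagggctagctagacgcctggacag
Axl: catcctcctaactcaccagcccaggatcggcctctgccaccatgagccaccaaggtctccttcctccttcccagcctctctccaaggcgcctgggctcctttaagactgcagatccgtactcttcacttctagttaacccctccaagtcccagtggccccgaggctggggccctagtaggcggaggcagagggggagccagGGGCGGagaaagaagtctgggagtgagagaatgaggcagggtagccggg
Ddr1: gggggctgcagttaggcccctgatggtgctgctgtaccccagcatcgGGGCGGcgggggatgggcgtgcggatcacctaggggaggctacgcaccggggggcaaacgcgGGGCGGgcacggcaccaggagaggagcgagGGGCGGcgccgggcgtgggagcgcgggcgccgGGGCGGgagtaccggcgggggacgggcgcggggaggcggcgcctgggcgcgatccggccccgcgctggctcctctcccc

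The GC box core stood in 5 of the 9 windows, and so in 5 of the 8 receptors that had a window. The share was 30.5% among the 33469 rat promoter windows of the same length. Egfr held 1 copy 51 bases before the start, Axl held 1 copy 49 bases before it, Erbb2 held 1, Fgfr2 held 2 and the second Ddr1 window held 4. The windows of Met, Insr and Ephb2 and the first window of Ddr1 held 0 copies. Receptors that were lower in BMSCs-OE-FNDC5 thus stood on both sides, and so did the windows of Ddr1. TATAAA was found in 0 of the 9 windows, beside 12.93% of all windows. GC content ran from 42.0% (Met) to 79.2% (the second Ddr1 window), with a median of 51.2% over all windows. Every receptor window except that of Met was above this median. The shares over all windows were not matched for GC content, so the motif counts cannot be told apart from base composition. A match describes the letters of a window and is no measure of binding.

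Egfr, the receptor for EGF, TGFα, amphiregulin and HB-EGF, showed the strongest fall of the 10 (ENSRNOG00000004332, chr14:99919485-100098796 on the plus strand in the table's own coordinates, whose build is not given in the sources used here). It was at 10.6, 15.5 and 13.1 CPM in BMSCs-OE-FNDC5 and at 36.2, 39.7 and 35.2 CPM in BMSCs-OE-NC. Every BMSCs-OE-FNDC5 library was far below every BMSCs-OE-NC library. Egfr fell 2.84-fold, with a mean of 13.1 ± 2.45 CPM in BMSCs-OE-FNDC5 and 37.0 ± 2.38 CPM in BMSCs-OE-NC (SD, n = 3 each; log2 fold change −1.50, standard error 0.12, edgeR adjusted p = 4.5e-07), and 8.13% of all genes tested fell more. Erbb2 (ENSRNOG00000006450, chr10:86367596-86391728, plus strand) encodes the partner receptor that binds no ligand of its own and pairs with other ErbB proteins. It was at 11.9, 13.4 and 12.9 CPM in BMSCs-OE-FNDC5 and at 11.4, 14.6 and 13.8 CPM in BMSCs-OE-NC. The groups overlapped, and the log2 fold change was −0.06 with a 95% interval of −0.33 to 0.20 (edgeR adjusted p = 0.66). This direction was positive at 0.52 with the length trend removed.

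The balance of the 2 ErbB receptors differed between the groups. Within a library, the ratio of Egfr to Erbb2 in FPKM was 1.01, 1.32 and 1.16 in BMSCs-OE-FNDC5 and 3.62, 3.10 and 2.90 in BMSCs-OE-NC. The 3 lowest ratios were those of BMSCs-OE-FNDC5, with a difference of −1.46 on the log2 scale (two-sided exact permutation test, p = 0.1, below which 3 against 3 libraries cannot go, and 0.133 after adjustment over 4 ratios). A ratio within a library is free of library scaling, and it shows unequal change and not which receptor changed. The other ErbB receptors, Erbb3 and Erbb4, did not pass the filter, at 0 to 0.136 CPM in sum in BMSCs-OE-FNDC5 and 0 in BMSCs-OE-NC.

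Of 11 ErbB ligands listed, 5 were tested, of which 2 were higher, 0 were lower and 3 did not pass, whereas 1 was higher and 1 lower with library size alone. Areg, which encodes amphiregulin, had 17, 18 and 30 counts in BMSCs-OE-FNDC5 and 8, 9 and 13 counts in BMSCs-OE-NC (log2 fold change 1.52, edgeR adjusted p = 0.0044), and it passed the filter through 1 group. Tgfa rose less, to 94, 98 and 119 counts in BMSCs-OE-FNDC5 against 92, 107 and 100 counts in BMSCs-OE-NC (log2 fold change 0.48, edgeR adjusted p = 0.015), so its rise rests on the scaling and it was not called with library size alone. Hbegf, the heparin-binding ligand, was at 33.9 CPM in BMSCs-OE-FNDC5 and 32.6 CPM in BMSCs-OE-NC (edgeR adjusted p = 0.50), and its direction turned with upper-quartile scaling and with library size alone. Nrg1, a ligand of Erbb3 and Erbb4, had 29, 34 and 31 counts in BMSCs-OE-FNDC5 and 27, 39 and 23 counts in BMSCs-OE-NC (edgeR adjusted p = 0.11).

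ErbB ligands are made as membrane proteins and freed by ADAM proteases. Of 11 tested genes for sheddases and ligand processing, 6 were higher, 4 lower and 1 did not pass, whereas 2 were higher and 4 lower with library size alone. Adam10, which sheds EGF and betacellulin, fell to 67, 78 and 64 counts in BMSCs-OE-FNDC5 against 428, 379 and 413 counts in BMSCs-OE-NC (log2 fold change −2.12, edgeR adjusted p = 3.2e-08). Adam17, the main sheddase of TGFα, amphiregulin and HB-EGF, was at 33.8 CPM in BMSCs-OE-FNDC5 and 55.1 CPM in BMSCs-OE-NC (log2 fold change −0.70, edgeR adjusted p = 1.6e-06). Adam15, another protease of the family, rose to 110 CPM in BMSCs-OE-FNDC5 against 63.3 CPM in BMSCs-OE-NC (log2 fold change 0.79, edgeR adjusted p = 4.6e-08). Furin, the convertase that cleaves the precursors of the insulin receptor and of MET, rose by 0.39 on the log2 scale (edgeR adjusted p = 2.7e-08) and was not called with library size alone.

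Both FGF receptors were lower, Fgfr2 more than Fgfr1. Fgfr1 (ENSRNOG00000016050, chr16:71266248-71319449, minus strand) is the main FGF receptor of mesenchymal cells. It was at 56.9, 60.6 and 59.2 CPM in BMSCs-OE-FNDC5 and at 71.6, 68.0 and 65.3 CPM in BMSCs-OE-NC. The groups did not overlap but the step was small, with a log2 fold change of −0.21 (standard error 0.05, edgeR adjusted p = 0.0017), and it turned to 0.13 with the length trend removed (adjusted p = 0.034). Fgfr2 (ENSRNOG00000016374, chr1:200590953-200696928, minus strand) is read in a form for epithelia, which binds FGF7 and FGF10, and a form for mesenchyme, and gene counts do not tell these forms apart. It was at 8.93, 8.32 and 7.95 CPM in BMSCs-OE-FNDC5 and at 17.8, 14.5 and 17.8 CPM in BMSCs-OE-NC. Every BMSCs-OE-FNDC5 library was below every BMSCs-OE-NC library, and Fgfr2 fell 1.99-fold (log2 fold change −0.99, standard error 0.12, edgeR adjusted p = 1.7e-05), just short of the fold threshold.

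Relative to Fgfr2, Fgfr1 gained. The ratio of Fgfr1 to Fgfr2 in FPKM was 8.98, 10.2 and 10.5 in BMSCs-OE-FNDC5 and 5.67, 6.60 and 5.17 in BMSCs-OE-NC, and the groups did not overlap. The difference was 0.77 on the log2 scale (two-sided exact permutation test, p = 0.1, the lowest this design allows), and it was 0.53 with the length trend removed. Fgfrl1, the decoy receptor that lacks a kinase domain, was at 42.7 CPM in BMSCs-OE-FNDC5 and 38.4 CPM in BMSCs-OE-NC (log2 fold change 0.15, edgeR adjusted p = 0.017), a direction that turned to −0.22 with library size alone.

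Of 17 FGF ligands listed, 5 were tested, of which 3 were lower and 2 higher, with 0 higher with library size alone. Fgf7, a paracrine FGF made by stromal cells, was at 85.7 CPM in BMSCs-OE-FNDC5 and 179 CPM in BMSCs-OE-NC (log2 fold change −1.07, edgeR adjusted p = 8.6e-10). Fgf10, of the same FGF subfamily, was at 144 CPM in BMSCs-OE-FNDC5 and 208 CPM in BMSCs-OE-NC (log2 fold change −0.53, edgeR adjusted p = 3.2e-07) and was not called with the length trend removed. Fgf2, the ligand used to expand stromal cells in culture, had 45, 46 and 58 counts in BMSCs-OE-FNDC5 and 43, 45 and 53 counts in BMSCs-OE-NC, counts nearly alike that gave a log2 fold change of 0.50 after scaling (edgeR adjusted p = 0.044). Fgf1 rose by 0.28 on the log2 scale (edgeR adjusted p = 0.021) and turned to −0.09 with library size alone. Fgf2 lost its call in 10 alternatives, among them DESeq2 and 4 fits without a single library.

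FGFs and HGF bind heparan sulfate on coreceptors. Of 8 tested coreceptors and ligand carriers, 6 were lower, 1 was higher and 1 did not pass, and 4 were lower and 2 higher with the length trend removed. Gpc1, a glypican anchored to the membrane, rose to 1919 CPM in BMSCs-OE-FNDC5 against 849 CPM in BMSCs-OE-NC (log2 fold change 1.18, edgeR adjusted p = 6.0e-12). Nrp2, a receptor for semaphorins and a partner of VEGF receptors, was at 81.7 CPM in BMSCs-OE-FNDC5 and 148 CPM in BMSCs-OE-NC (log2 fold change −0.86, edgeR adjusted p = 1.0e-08), without a call once the length trend was removed. Sdc2, a syndecan, fell by 0.35 on the log2 scale (edgeR adjusted p = 1.1e-06).

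Axl (ENSRNOG00000020716, chr1:82549420-82580761, minus strand), the TAM receptor for GAS6 that supports survival and the clearance of dying cells, was the most abundant of the 10 receptors in both groups. It had 4639, 4745 and 4759 counts in BMSCs-OE-FNDC5 and 11738, 11484 and 11055 counts in BMSCs-OE-NC, which gave 307, 324 and 315 CPM in BMSCs-OE-FNDC5 and 577, 572 and 558 CPM in BMSCs-OE-NC. The libraries of a group lay within a few percent of each other, with coefficients of variation of 2.66% in BMSCs-OE-FNDC5 and 1.67% in BMSCs-OE-NC. Axl fell 1.81-fold (log2 fold change −0.85, standard error 0.03, edgeR adjusted p = 3.4e-10), the most precise estimate among the 10.

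Its ligand took the other direction. Gas6 rose to 5608, 5577 and 5648 counts in BMSCs-OE-FNDC5 against 1761, 1743 and 1815 counts in BMSCs-OE-NC, or 375 CPM against 88.4 CPM (log2 fold change 2.09, edgeR adjusted p = 1.3e-12). Pros1, which encodes protein S, a ligand of Tyro3 and Mertk, fell to 79, 110 and 121 counts in BMSCs-OE-FNDC5 against 469, 411 and 423 counts in BMSCs-OE-NC (log2 fold change −1.64, edgeR adjusted p = 1.3e-06). Tyro3, the only relative in the MET and TAM families that was tested, was at 10.5 CPM in BMSCs-OE-FNDC5 and 7.25 CPM in BMSCs-OE-NC (log2 fold change 0.53, edgeR adjusted p = 0.0019) and was not called with library size alone. No direction among these 4 genes of the TAM axis turned in any alternative that was run.

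Met (ENSRNOG00000052745, chr4:44774741-44852665, plus strand), the receptor for hepatocyte growth factor, was the scarcest of the 10. It had 13, 8 and 7 counts in BMSCs-OE-FNDC5 and 15, 37 and 38 counts in BMSCs-OE-NC. These were 0.860, 0.546 and 0.464 CPM in BMSCs-OE-FNDC5 and 0.737, 1.84 and 1.92 CPM in BMSCs-OE-NC. In CPM, replicate 1 of BMSCs-OE-NC fell within the range of BMSCs-OE-FNDC5 and the other BMSCs-OE-NC libraries lay above it. The log2 fold change was −1.25 with a standard error of 0.44 and a 95% interval of −2.24 to −0.27 (edgeR adjusted p = 0.024). The call was lost in 8 of 16 alternatives, with adjusted p of 0.066 without BMSCs-OE-FNDC5 replicate 2, 0.078 without BMSCs-OE-FNDC5 replicate 3, 0.086 without BMSCs-OE-NC replicate 2 and 0.093 without BMSCs-OE-NC replicate 3. At this depth the size of the Met difference is poorly known. Its ligand Hgf had 123, 107 and 142 counts in BMSCs-OE-FNDC5 and 537, 492 and 533 counts in BMSCs-OE-NC (log2 fold change −1.65, edgeR adjusted p = 1.0e-07), with no overlap. The ratio of Axl to Met in FPKM was 407, 676 and 775 in BMSCs-OE-FNDC5 and 892, 354 and 331 in BMSCs-OE-NC, and the groups overlapped (two-sided exact permutation test, p = 0.7).

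The collagen receptors went apart. Ddr2 (ENSRNOG00000002881, chr13:88317145-88436789, minus strand), the discoidin domain receptor typical of mesenchymal cells, was at 23.8, 26.2 and 26.4 CPM in BMSCs-OE-FNDC5 and at 52.5, 63.9 and 58.9 CPM in BMSCs-OE-NC. All 3 BMSCs-OE-FNDC5 libraries were at about the same low level, and Ddr2 fell 2.30-fold (log2 fold change −1.20, standard error 0.08, edgeR adjusted p = 7.5e-08). Ddr1 (ENSRNOG00000057125, chr20:3552929-3575780, plus strand), best known from epithelia, was at 82.1, 80.3 and 83.4 CPM in BMSCs-OE-FNDC5 and at 74.9, 79.9 and 76.8 CPM in BMSCs-OE-NC. The groups did not overlap but came close, and the log2 fold change of 0.09 did not pass (standard error 0.04, 95% interval −0.0024 to 0.17, edgeR adjusted p = 0.071). It turned to −0.02 with upper-quartile scaling and to −0.28 with library size alone.

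The shift between the collagen receptors was seen within each library. The ratio of Ddr1 to Ddr2 in FPKM was 2.96, 2.63 and 2.71 in BMSCs-OE-FNDC5 and 1.22, 1.07 and 1.12 in BMSCs-OE-NC. Both receptors were thus at nearly the same level per length in BMSCs-OE-NC, while Ddr1 led in every BMSCs-OE-FNDC5 library, with a difference of 1.28 on the log2 scale (two-sided exact permutation test, p = 0.1, the lowest this design allows). The difference was 1.40 with the length trend removed.

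**Figure D2:**
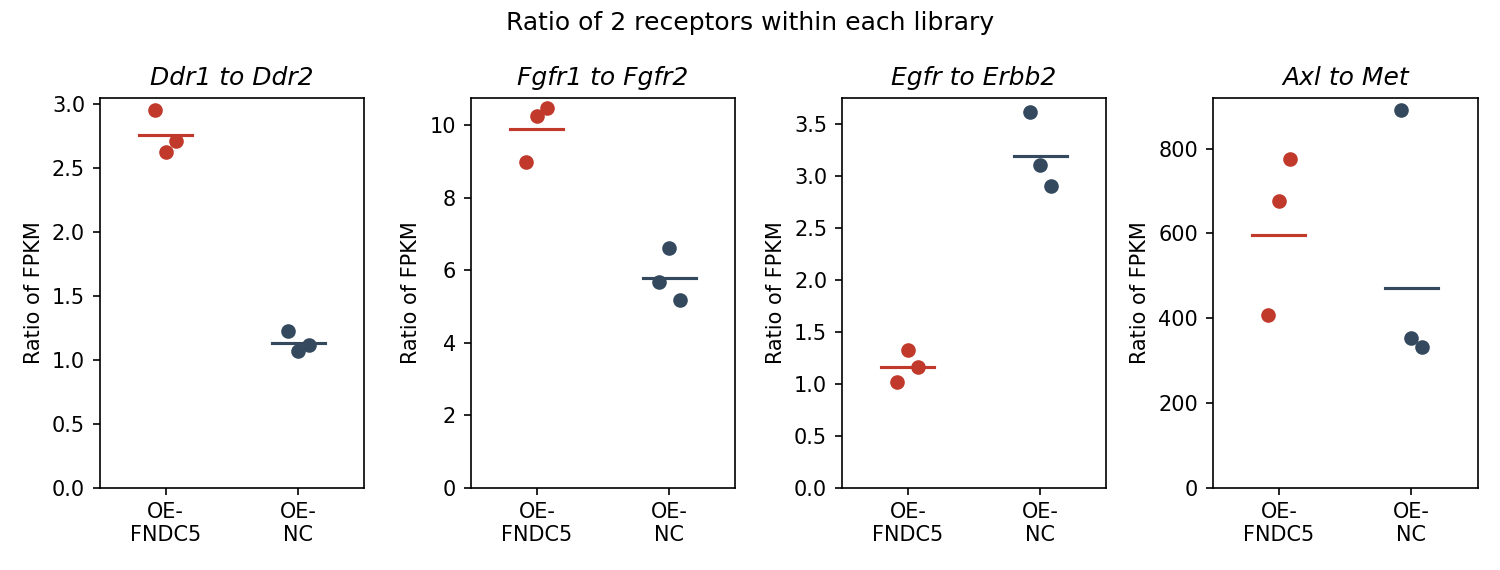
Ratio of the FPKM of 2 receptors in each library on linear axes that start at 0, with BMSCs-OE-FNDC5 in red on the left and BMSCs-OE-NC in dark blue on the right of each panel, 1 point per library and a bar at the geometric mean. The groups are separate for Ddr1 to Ddr2, Fgfr1 to Fgfr2 and Egfr to Erbb2, and overlap for Axl to Met.

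Of 7 tested collagen genes whose proteins bind the discoidin domain receptors, 4 were lower, 1 was higher and 2 did not pass. The tally turned to 0 lower and 4 higher with the length trend removed, and 2 of the 4 lower genes had passed the filter through BMSCs-OE-NC only. Col3a1 rose to 2924 CPM in BMSCs-OE-FNDC5 against 1715 CPM in BMSCs-OE-NC (log2 fold change 0.77, edgeR adjusted p = 3.0e-11). Col1a1 was at 2232 CPM in BMSCs-OE-FNDC5 and 2835 CPM in BMSCs-OE-NC (log2 fold change −0.34, edgeR adjusted p = 5.2e-08), but its direction turned to 0.38 with the length trend removed. Col5a2 fell by 0.26 on the log2 scale (edgeR adjusted p = 7.8e-07) and likewise turned, to 0.28. Col3a1 thus stands alone among the 3 in keeping its direction in both fits.

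Insr (ENSRNOG00000029986, chr12:1680957-1816414, minus strand) encodes the insulin receptor, which drives glucose uptake and growth through IRS docking proteins. It was at 7.28, 8.18 and 9.34 CPM in BMSCs-OE-FNDC5 and at 17.8, 22.1 and 21.2 CPM in BMSCs-OE-NC. The groups were well apart, and Insr fell 2.46-fold (log2 fold change −1.30, standard error 0.13, edgeR adjusted p = 2.9e-06). At 6969 bases it has the longest transcript of the 10, and with the length trend removed the log2 fold change was −0.46 (adjusted p = 0.0052). Irs1 had 13, 21 and 30 counts in BMSCs-OE-FNDC5 and 125, 133 and 140 counts in BMSCs-OE-NC (log2 fold change −2.21, edgeR adjusted p = 9.5e-06). Irs2 was at 22.4 CPM in BMSCs-OE-FNDC5 and 43.3 CPM in BMSCs-OE-NC (log2 fold change −0.95, edgeR adjusted p = 2.3e-07), and its call did not hold with the length trend removed (−0.15, adjusted p = 0.057). Grb10, an adaptor that binds and restrains the insulin receptor, fell by 0.56 on the log2 scale (edgeR adjusted p = 1.4e-07) and turned to 0.09 in that fit.

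Ephb2 (ENSRNOG00000012531, chr5:155022493-155204456, minus strand) is a receptor for ephrin-B ligands on neighbouring cells and guides contact and repulsion. It was at 3.17, 2.39 and 3.44 CPM in BMSCs-OE-FNDC5 and at 4.67, 5.48 and 4.70 CPM in BMSCs-OE-NC. The groups did not overlap, and the log2 fold change was −0.72 (standard error 0.19, edgeR adjusted p = 0.0047). With the length trend removed it was −0.10 (adjusted p = 0.63), and the call was lost. Of 5 tested ephrins, 2 were lower and 3 did not pass. All 5 were lower with the length trend removed, and 4 with library size alone. Efnb1 fell by 0.63 on the log2 scale, to 229, 244 and 199 counts in BMSCs-OE-FNDC5 against 465, 457 and 477 counts in BMSCs-OE-NC (edgeR adjusted p = 1.3e-04). Efnb2 fell to 14, 13 and 5 counts in BMSCs-OE-FNDC5 against 46, 56 and 60 counts in BMSCs-OE-NC (log2 fold change −1.91, edgeR adjusted p = 3.6e-04) and passed the filter through 1 group.

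All 10 receptors have long transcripts, and length moved with the change of all genes in this comparison. When the genes tested were divided into 8 equal classes of length, the median log2 fold change was 0.65 in the shortest class, up to 956 bases, and −0.84 in the longest, from 4723 bases. Egfr, Axl, Ddr1 and Ddr2 were in the class of 3532 to 4722 bases, with a median of −0.43 and 56.8% of genes lower. Erbb2, Fgfr2, Met, Insr and Ephb2 were in the longest class, with 73.4% of genes lower. Fgfr1 was in the class of 2800 to 3530 bases, with a median of −0.26 and 49.8% of genes lower. Egfr, Ddr2, Axl, Insr, Met and Fgfr2 stood below the median of their class, and Fgfr1, Ephb2, Erbb2 and Ddr1 stood above it. The part of length in these results was not tested beyond a fit that carries each library's trend of counts with length as an offset.

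In that fit 5 receptors were lower, 3 were higher and 2 did not pass. The lower receptors were Egfr (−1.02, adjusted p = 1.1e-05), Ddr2 (−0.79, adjusted p = 2.1e-06), Insr (−0.46, adjusted p = 0.0052), Fgfr2 (−0.41, adjusted p = 0.011) and Axl (−0.34, adjusted p = 6.1e-07), as log2 fold changes from edgeR. The higher ones were Ddr1 (0.61, adjusted p = 1.0e-07), Erbb2 (0.52, adjusted p = 0.0021) and Fgfr1 (0.13, adjusted p = 0.034). Met (−0.65, adjusted p = 0.21) and Ephb2 (−0.10, adjusted p = 0.63) did not pass. The receptors' median was −0.37 in this fit, beside 0.03 over all genes tested, of which 4642 were higher and 4050 lower. Egfr, Ddr2, Insr, Fgfr2 and Axl were lower in every alternative that was run, with the adjusted p under 0.05 each time.

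**Figure D3:**
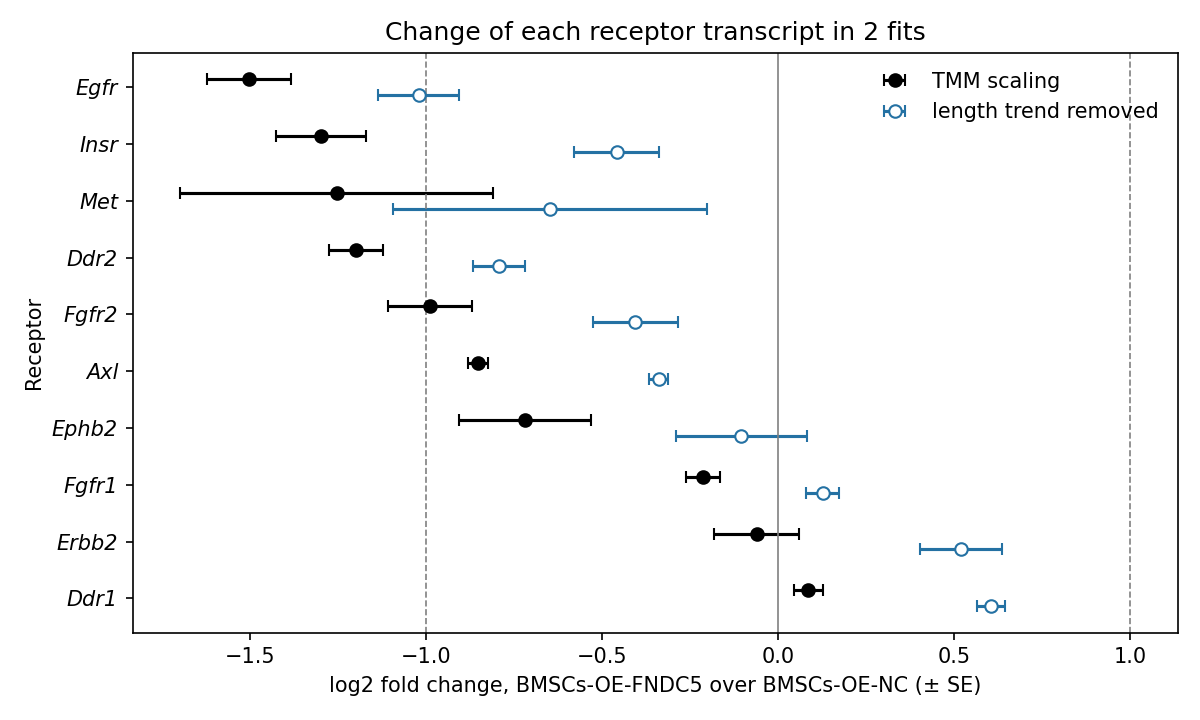
Log2 fold change of each receptor (positive where BMSCs-OE-FNDC5 was higher) from edgeR with TMM scaling (filled black) and with each library's length trend as an offset (open blue), with bars of 1 standard error and dashed lines at a log2 fold change of −1 and 1. Removing the trend moves every receptor to the right, Egfr stays lowest at −1.02, and Fgfr1, Erbb2 and Ddr1 lie above 0.

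Among the other RTKs, 44 of 46 listed were in the table, 16 had 0 counts in every library and 13 were tested. Of these 13, 7 were lower, 4 were higher and 2 did not pass, with a median log2 fold change of −0.34. Of the same 13, 3 had passed the filter through 1 group only. This balance depended on the scaling, since 3 were lower and 6 higher with the length trend removed (median 0.15), and 10 were lower and 1 higher with library size alone. The 4 tested receptors of the ROR, PTK7 and RYK group, which read WNT signals, were lower, 1 of them having passed the filter through BMSCs-OE-NC only, and 3 of the 4 were lower with the length trend removed. Ptk7 was at 143 CPM in BMSCs-OE-FNDC5 and 234 CPM in BMSCs-OE-NC (log2 fold change −0.71, edgeR adjusted p = 6.6e-09) and Ryk was at 179 CPM in BMSCs-OE-FNDC5 and 240 CPM in BMSCs-OE-NC (log2 fold change −0.42, edgeR adjusted p = 1.0e-07). Of the 6 tested relatives of Ephb2, 2 were higher, 2 lower and 2 did not pass, but 4 were higher and 0 lower with the length trend removed, and 1 was higher and 4 lower with library size alone. Epha10, among the higher ones, had passed the filter through BMSCs-OE-FNDC5 only. Epha2 was at 57.8 CPM in BMSCs-OE-FNDC5 and 44.3 CPM in BMSCs-OE-NC (log2 fold change 0.38, edgeR adjusted p = 8.3e-05), a call that was lost with library size alone, at 0.01. Epha4 had 8, 11 and 6 counts in BMSCs-OE-FNDC5 and 17, 25 and 30 counts in BMSCs-OE-NC (log2 fold change −1.09, edgeR adjusted p = 0.029), a call that was lost in 8 alternatives, and it passed the filter through BMSCs-OE-NC only. Ephb4, a receptor for ephrin-B2, fell by 0.21 on the log2 scale (edgeR adjusted p = 0.0042) and turned to 0.26 with the length trend removed. Lmtk2, a kinase listed here with the other RTKs, fell by 0.80 (edgeR adjusted p = 1.1e-06) and turned to 0.15 in that fit.

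The docking proteins that RTKs recruit changed in both directions. Of 23 tested adaptors, 10 were lower, 8 were higher and 5 did not pass, beside 38.8% lower and 36.9% higher over all genes tested. The list's median log2 fold change was 0.06. With the length trend removed 6 were lower and 12 higher, and with library size alone 14 were lower and 5 higher. Frs2, the docking protein of FGF receptors, fell to 77, 44 and 58 counts in BMSCs-OE-FNDC5 against 303, 317 and 376 counts in BMSCs-OE-NC (log2 fold change −2.05, edgeR adjusted p = 1.3e-06). Gab1, the docking protein of MET and ErbB receptors, had 36, 30 and 36 counts in BMSCs-OE-FNDC5 and 96, 107 and 78 counts in BMSCs-OE-NC (log2 fold change −1.04, edgeR adjusted p = 4.6e-04). Crk, an adaptor of the cytoskeleton and RAP1, fell by 1.02 on the log2 scale (edgeR adjusted p = 1.8e-07). Grb2, which bridges receptors to the RAS exchange factor SOS, was at 82.5 CPM in BMSCs-OE-FNDC5 and 69.7 CPM in BMSCs-OE-NC (log2 fold change 0.24, edgeR adjusted p = 0.0014), a direction that turned with library size alone. Dok1, which dampens RAS signalling, rose to 96.0 CPM in BMSCs-OE-FNDC5 against 38.5 CPM in BMSCs-OE-NC (log2 fold change 1.32, edgeR adjusted p = 2.7e-10). Frs2, Gab1 and Irs1 were thus each lower by more than 1 on the log2 scale. Past the fold threshold, 6 of the 23 adaptors were lower and 2 were higher.

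In the cascade from RAS to ERK, 14 of 22 tested genes were lower, 5 were higher and 3 did not pass, and 8 of the 14 passed the fold threshold. Over all genes tested 38.8% were lower and 36.9% higher, and 17.5% were lower past the fold threshold. Of the 22, 3 had passed the filter on low counts through 1 group only. Nf1, a GTPase-activating protein that switches RAS off, had 33, 36 and 28 counts in BMSCs-OE-FNDC5 and 200, 261 and 227 counts in BMSCs-OE-NC (log2 fold change −2.40, edgeR adjusted p = 1.9e-07). Rps6ka3, the ERK substrate kinase RSK2, was at 6.26 CPM in BMSCs-OE-FNDC5 and 24.6 CPM in BMSCs-OE-NC (log2 fold change −1.98, edgeR adjusted p = 1.4e-08). Rras, a RAS relative that acts on adhesion, rose to 409 CPM in BMSCs-OE-FNDC5 against 175 CPM in BMSCs-OE-NC (log2 fold change 1.23, edgeR adjusted p = 8.7e-11). The list's median was −0.38. With the length trend removed 13 were lower and 8 higher.

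Of 25 tested feedback inhibitors and phosphatases, 19 were lower, 5 were higher and 1 did not pass, with a median log2 fold change of −0.88. Socs5, which is known to lower EGFR in cells, was at 70.9 CPM in BMSCs-OE-FNDC5 and 199 CPM in BMSCs-OE-NC (log2 fold change −1.49, edgeR adjusted p = 2.5e-11). Cbl, the ubiquitin ligase that tags active receptors for the lysosome, had 18, 13 and 18 counts in BMSCs-OE-FNDC5 and 100, 100 and 77 counts in BMSCs-OE-NC (log2 fold change −2.07, edgeR adjusted p = 6.1e-06). Dusp6 and Dusp7 encode phosphatases of cytoplasmic ERK. Dusp6 was at 70.4 CPM in BMSCs-OE-FNDC5 and 129 CPM in BMSCs-OE-NC (log2 fold change −0.88, edgeR adjusted p = 5.0e-08), and Dusp7 was at 65.3 CPM in BMSCs-OE-FNDC5 and 120 CPM in BMSCs-OE-NC (log2 fold change −0.88, edgeR adjusted p = 3.8e-09). Spry2, a Sprouty protein induced by FGF and EGF signals, fell by 0.65 on the log2 scale (edgeR adjusted p = 3.2e-08). Lrig1, a membrane protein that sends ErbB receptors to degradation, fell by 0.97 (edgeR adjusted p = 1.7e-04). Dusp5, the phosphatase of nuclear ERK, rose by 0.60 on the log2 scale (edgeR adjusted p = 1.3e-06). Errfi1, which binds the kinase domain of ErbB receptors, rose by 0.22 (edgeR adjusted p = 1.7e-04) and turned to −0.15 with library size alone. With the length trend removed, 16 of the 25 were lower and 4 higher, with a median of −0.69.

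**Figure D4:**
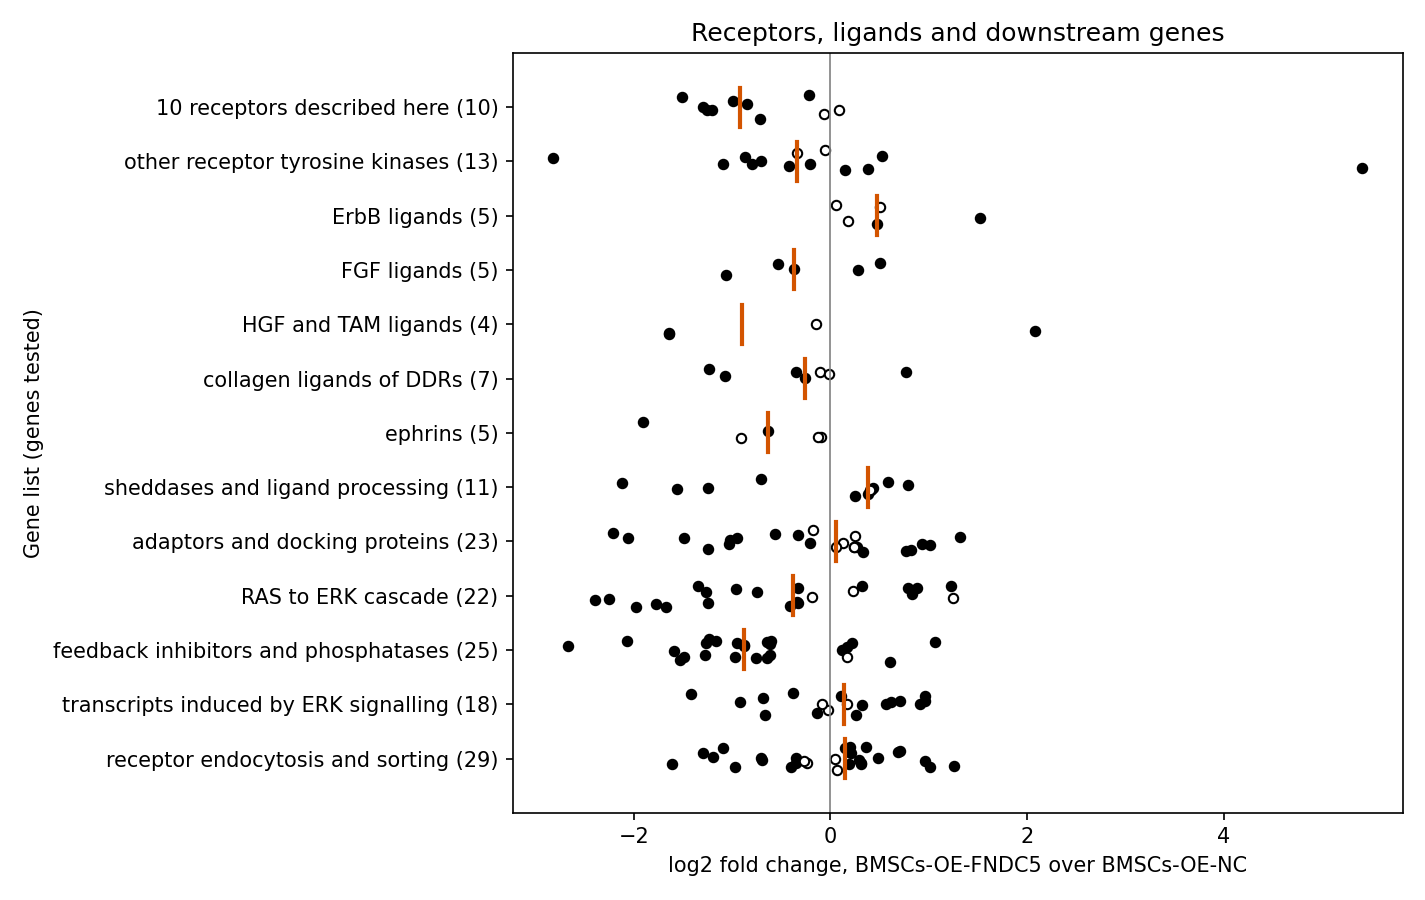
Log2 fold change (positive where BMSCs-OE-FNDC5 was higher) of every tested gene in the receptor lists and the lists around them, with filled points for an adjusted p under 0.05 (edgeR), open points for genes that did not pass and an orange bar at each list's median. The medians of the 10 receptors (−0.92) and of the feedback inhibitors (−0.88) lie well below 0, and the genes of the ERK-induced and endocytosis lists lie on both sides of 0.

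Of 18 tested transcripts that ERK signalling induces, 9 were higher, 6 lower and 3 did not pass, whereas 6 were higher and 10 lower with library size alone (median −0.23, beside 0.14 with TMM). Ier3, an early response gene, rose to 1476 CPM in BMSCs-OE-FNDC5 against 755 CPM in BMSCs-OE-NC (log2 fold change 0.97, edgeR adjusted p = 3.6e-11), and Maff, a small MAF factor, rose by 0.91 on the log2 scale (edgeR adjusted p = 1.2e-10). Egr1, the early zinc finger factor, was at 81.2 CPM in BMSCs-OE-FNDC5 and 131 CPM in BMSCs-OE-NC (log2 fold change −0.69, edgeR adjusted p = 2.2e-08). Of 29 tested genes for endocytosis and sorting of receptors, 15 were higher, 10 lower and 4 did not pass, whereas 6 were higher and 19 lower with library size alone. The clathrin chains went in opposite directions, and their gene lengths differ. Clta has 1171 bases and Cltb 1047, in the class of 957 to 1434 bases, with a median log2 fold change of 0.36. Cltc has 6069 bases, in the longest class, with a median of −0.84. The part of length in this split was not tested. The light chains rose, Clta by 0.96 on the log2 scale (edgeR adjusted p = 4.0e-11) and Cltb by 1.26 (edgeR adjusted p = 2.3e-10). Cltc, the heavy chain, was at 31.4 CPM in BMSCs-OE-FNDC5 and 96.1 CPM in BMSCs-OE-NC (log2 fold change −1.61, edgeR adjusted p = 1.2e-10).

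The cell type was checked by its markers. Of 10 marrow stromal markers, 9 were tested, with 4 higher and 5 lower and a median log2 fold change of −1.02. Over all genes tested 36.9% were higher and 38.8% lower, and 9.84% and 17.5% past the fold threshold. All 5 lower markers (Nt5e, Itgb1, Vcam1, Cxcl12 and Pdgfrb) and 1 higher one (Thy1) passed the fold threshold. The markers summed to 8504 to 8664 CPM in BMSCs-OE-FNDC5 and 6921 to 7101 CPM in BMSCs-OE-NC, a sum carried by abundant Vim, which was higher in BMSCs-OE-FNDC5. Of the markers of other cell types, 6 of 10 for macrophages were at 0 in every library, as were 9 of 11 for lymphocytes and granulocytes, 5 of 7 for endothelium and 6 of 9 for epithelium. The macrophage sum was 198 to 206 CPM in BMSCs-OE-FNDC5 and 98.0 to 104 CPM in BMSCs-OE-NC, nearly all of it Cd14. The endothelial sum was 90.6 to 93.9 CPM in BMSCs-OE-FNDC5 and 51.8 to 55.3 CPM in BMSCs-OE-NC, nearly all of it Egfl7. The epithelial sum was 2.66 to 4.37 CPM in BMSCs-OE-FNDC5 and 1.52 to 2.12 CPM in BMSCs-OE-NC, beside an Erbb2 and a Ddr1 that did not pass the test. Of 5 erythroid markers, 4 were at 0 and the 1 tested was higher (log2 fold change 1.32). The erythroid sum was 2.11 to 2.91 CPM in BMSCs-OE-FNDC5 and 0.909 to 1.20 CPM in BMSCs-OE-NC. The extraction text in the labels speaks of retinas, and markers of retina and neuron summed to 42.1 to 44.8 CPM in BMSCs-OE-FNDC5 and 15.7 to 19.5 CPM in BMSCs-OE-NC, mainly Stmn2, with 5 of 10 at 0. The part of these sums in the receptor results was not tested.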

How the data were processed

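The authors deposited gene counts, whole numbers per gene, and a table of FPKM values, which equal the count divided by gene length and by a scaled library size. The submitters' processing notes list HTSeq 0.6.0 and DESeq2, the aligners HISAT2 2.1.0, Bowtie2 2.2.3 and TopHat2, the Illumina software CASAVA and the mouse build mm10, whereas the gene identifiers are rat Ensembl ones. The rat build and the strand setting are not given in the sources used here. The kit named in the labels is Illumina TruSeq RNA. Erbb2 and Fgfr1 each overlap a small RNA gene on the other strand, with a mean of 0 and 0.667 counts. Isoforms cannot be told apart in these counts. Of columns with per-sample values, 0 were left unused.

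For the counts, edgeR 4.0.16 was used under R 4.3.3 (filterByExpr with minimum count 10 and minimum total 15, TMM, trended dispersions, glmQLFit and glmQLFTest on group alone). Benjamini-Hochberg adjustment covered all 12104 genes tested. The procedure was tested on simulated counts with few changed genes, no length trend and no shift in composition. That test therefore does not bear on scaling or length in these data. Within-library ratios were compared by an exact permutation test. FPKM served to order levels between genes. The text names the 10 receptors, up to 2 genes of each list with the smallest p in its main direction, 1 in the other, and 25 direct partners. The receptors and lists were chosen with earlier results of these data known.

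Alternatives were DESeq2 1.42.0, RLE, upper-quartile or library size scaling, no filter, at least 10 counts in every library, limma-voom (limma 3.58.1), limma-trend on log2(FPKM + 1) and log2(FPKM + 0.1), replicate number as a block, a length trend (lowess, span 0.3) as an offset, and each library left out. Same-numbered libraries of the 2 groups had deviations from the group means with correlations of 0.021, −0.014 and −0.0067, so replicate numbers were not taken as pairs. Pearson correlations of log2 CPM were 0.986 to 0.989 within groups and 0.929 to 0.931 between them, and no pair of libraries was identical. Plots were made in matplotlib 3.10.9 (Python 3.11.15). Sequencing reads were not used here, and 3 genes of the lists are not reported here.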

Additional observations from a re-analysis of the deposited data

How the results depend on the processing

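Of 169 refits of the receptors' log2 fold changes, 152 kept direction and side of the threshold, 3 passed only in the alternative, 9 no longer passed and 5 turned. The 5 were Erbb2 (0.52 with the length trend as an offset, and −0.17 to 0.0051 over fits without a single library, positive without BMSCs-OE-NC replicate 2), Fgfr1 (0.13 with the length trend as an offset) and Ddr1 (−0.019 with upper-quartile scaling, −0.28 with library size alone). Calls of receptors at adjusted p under 0.05 were 8 lower and 0 higher in the main test, 5 lower and 3 higher with the length trend as an offset, 1 higher with RLE scaling (Ddr1, 0.12, adjusted p = 0.022) and 7 to 8 lower without a single library. With the fold threshold, 4 were lower in the main test, 7 with library size alone, 2 on log2(FPKM + 1), which understates low genes, 1 with the length trend as an offset and 3 to 5 without a single library. With library size alone, the median of all genes moved by −0.37 on the log2 scale and all 10 receptors were lower. Upper-quartile scaling moved it by −0.10.

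Over all genes, with library size alone 2659 were higher (4469 in the main test), and past the fold threshold 3338 were lower and 483 higher (2124 and 1191). On log2(FPKM + 1), 706 were lower past the fold threshold. The lower share of calls past the fold threshold was 64.1% in the main test, 87.4% with library size alone, 72.4% with upper-quartile scaling and 44.9% on log2(FPKM + 1). Among 175 tested genes of the lists around the receptors, 59 were higher in the main test and 30 with library size alone. Past the fold threshold 41 were lower in the main test, 65 with library size alone and 16 on log2(FPKM + 1), and 10 were higher in the main test, 3 with library size alone, 6 on log2(FPKM + 1) and 6 with at least 10 counts in every library. Met could not be fitted with at least 10 counts in every library. Whether length, RNA content or another cause sets these differences was not tested.

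With the replicate number as a block, 4628 genes were lower and 4399 higher over all genes, 8 receptors were lower and 0 higher, and no receptor's call changed. The ratios kept their differences, and the block's exact permutation test cannot go below p = 0.25. Every library correlated near 0 with its own number, so the block describes a shared number only. The exact permutation test of 3 against 3 libraries cannot pass 0.05, and the ratios' p says nothing on stability. Met, with 7 to 38 counts, and Ephb2, with 35 to 110, are limited by depth.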

Other observations

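Within the cascade from RAS to ERK, some members of the same family moved in opposite directions. These 7 genes were chosen after their values were seen, and apart from Araf each kept its direction and its call in every alternative that was run. Hras was at 114 CPM in BMSCs-OE-FNDC5 and 64.3 CPM in BMSCs-OE-NC (log2 fold change 0.83, edgeR adjusted p = 2.3e-08), whereas Nras fell by 0.74 on the log2 scale (edgeR adjusted p = 4.3e-05). Mapk3, which encodes ERK1, rose by 0.88 on the log2 scale (edgeR adjusted p = 2.2e-10). Map2k2 rose by 0.79 (edgeR adjusted p = 3.4e-10) and Map2k1 fell by 0.32 (edgeR adjusted p = 2.1e-06). Among the RAF kinases, Araf rose by 0.32 (edgeR adjusted p = 2.6e-05) but turned to −0.05 with library size alone, and Braf fell by 1.26 (edgeR adjusted p = 0.0087).

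A pair of scarce receptors, also chosen after their values were seen, were detected mostly in 1 group. Epha10 had 21, 10 and 14 counts in BMSCs-OE-FNDC5 and 1, 0 and 0 counts in BMSCs-OE-NC. Ror1 had 1, 2 and 9 counts in BMSCs-OE-FNDC5 and 46, 33 and 37 counts in BMSCs-OE-NC. Both passed the filter through 1 group.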
